A study of Mus musculus with 6 samples.

Results

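The chemokines and interleukins expressed by HK-2 cells were compared between 3 control libraries and 3 libraries with overexpression of USAG-1, a secreted antagonist of BMP and Wnt signalling encoded by SOSTDC1. HK-2 is an immortalised line of human proximal tubular epithelial cells. Members were taken by gene name: the CXCL and CCL chemokines, CX3CL1, the interleukins, and LIF, CSF1, CSF2, CSF3, TNF, TSLP and CLCF1. The rule found 54 genes of the 39234 in the deposited count table. Of these, 44 had at least 1 count in some library, 31 had a count in all 3 libraries of at least one group, and 30 had enough counts to be tested.

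All 6 samples carry the same genotype label, WT, and the same tissue and cell line labels, and no treatment other than the overexpression is given for them. Overexpression in cells was by transient transfection of an expression plasmid, so the cells of a culture need not all have carried it. The cell line was not authenticated by STR profiling. The organism label reads mouse, but the deposited gene identifiers are human. Nothing in the labels says that the samples came from separate cultures, so the p-values measure only the spread between these samples, which may be technical.

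Chemokines are small secreted proteins that draw leukocytes along a gradient by binding receptors coupled to G proteins. Interleukins, colony-stimulating factors and the IL-6 family act through cytokine receptors, many of which signal through JAK kinases and STAT factors, and NF-kappaB drives the transcription of many chemokine and cytokine genes. Injured proximal tubule cells are a known source of such factors, which recruit neutrophils, monocytes and lymphocytes into the kidney.

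SOSTDC1 measured 1.89, 1.62 and 1.41 CPM (counts scaled to the library size after TMM normalisation) in the controls and 110, 89.5 and 103 CPM in the overexpressing libraries (log2 fold change 5.94, SE 0.13), which matches the labels. Libraries held 41236194 to 48699471 counts, and on the TMM scale 3 counts correspond to 0.0608 to 0.0719 CPM. Control 3 stood apart from the other controls: its counts differed from theirs with a chi-square of 42.3 and 42.7 per degree of freedom, against 6.52 to 8.35 for the other replicate pairs. Mitochondrially encoded genes took 4.80 to 5.59% of the control counts and 1.50 to 1.55% of the overexpressing ones.

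Markers of other cell types were read beside the members, because leukocytes make many of the same factors. The most abundant genes of the kidney epithelial list were VIM, the vimentin filament that mesenchymal cells and leukocytes also make, KRT8, an epithelial keratin, and HAVCR1, an injury marker of the proximal tubule, all expressed in every library. The summed level of the 19 kidney epithelial markers was 4669 to 5552 CPM in the controls and 5101 to 5319 CPM with USAG-1, with 4 higher and 2 lower among 15 tested. The defining proximal tubule gene LRP2 had no count in any library, and CUBN and AQP1 did not exceed 0.359 and 0.188 CPM. Every one of 32 T and NK cell markers had counts, and their summed level was 172 to 204 CPM in the controls and 48.6 to 56.4 CPM with USAG-1. Of the 30 T and NK cell markers tested, 24 fell and none rose in edgeR's test, with 1 higher at an unadjusted p under 0.05. GNLY, which encodes the lytic protein granulysin, measured 22.3, 23.3 and 29.0 CPM in the controls and 0.457, 1.37 and 1.85 CPM with USAG-1. CORO1A, a leukocyte actin regulator, measured 17.8, 18.8 and 26.7 CPM against 4.29, 5.98 and 7.51 CPM. IL7R, the receptor chain for IL-7, ran from 17.8 to 21.9 CPM in the controls and from 21.9 to 27.6 CPM with USAG-1, and did not pass the test. In bulk RNA, fewer cells of a type and less RNA per cell cannot be told apart.

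No other leukocyte or stromal list had lower sums in the 3 USAG-1 libraries than in the 3 controls. The summed level of 20 myeloid markers, led by VCAN, CD68 and S100A9, was 670 to 763 CPM in the controls and 799 to 850 CPM with USAG-1, with 1 higher, CD68, and 2 lower, LYZ and ITGAM, among 18 tested, of which 11 were below 0 in log2 fold change. For the 12 B and plasma cell markers it was 15.9 to 16.6 against 17.2 to 23.2 CPM, with 1 higher, CD22, among 11 tested, of which 9 were below 0 (list median -0.46). The 11 endothelial and fibroblast markers summed to 47.5 to 51.1 against 63.1 to 65.3 CPM, with LUM higher among 6 tested. The 11 platelet and erythroid markers ranged from 10.8 to 114 CPM in the controls and from 9.76 to 80.1 CPM with USAG-1, and none of 8 tested passed in edgeR's test, with 1 at an unadjusted p under 0.05.

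Of the 30 members tested, 11 passed an adjusted p of 0.05 in the quasi-likelihood test of edgeR, adjusted by Benjamini and Hochberg's method over the 18188 genes tested. IL18, CX3CL1 and CXCL5 rose. CCL5, CCL20, CCL2, IL16, IL11, LIF, IL15 and CSF2 fell. The members that rose were 10% of those tested, close to the 8.95% of all tested genes called higher. Those that fell were 26.7%, against 6.91% of all tested genes called lower. The median log2 fold change was -0.33 over the tested members and -0.02 over all tested genes, with 10 members above and 20 below 0. The 3 USAG-1 libraries lay wholly above or wholly below the 3 controls for 18 members, or 60.0%, against 37.6% of all tested genes, and 7 of those 18 did not pass the test. A gene enters the test once it has enough counts in 3 or more libraries of either group, which the group where it is higher can supply alone. These shares therefore describe the tested members and not all 54. Of the 30 tested members, 5 had under 10 counts in some library.

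**Figure D1:**
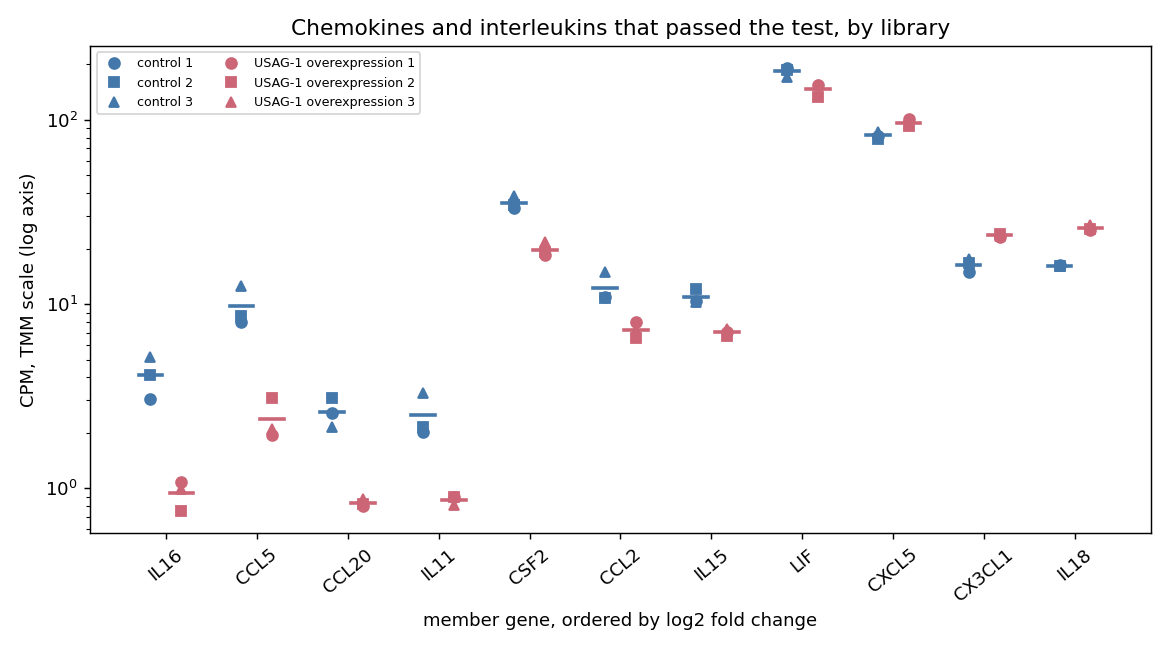
Level in each library, in CPM on a log axis, of the 11 members that passed the test, ordered by fold change. Points are libraries (blue control, red USAG-1 overexpression) and short lines are group means. For all 11 the red and blue points are apart: IL16 measured 3.07 to 5.14 CPM in the controls and 0.756 to 1.09 CPM with USAG-1, whereas IL18 measured 16.1 to 16.3 and 25.3 to 26.8 CPM. Levels are not corrected for gene length and are not to be compared between genes.

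The 6 neutrophil-attracting CXC chemokines, which bind CXCR2 or both CXCR1 and CXCR2, lie together on chromosome 4 between 73740519 and 74099195 (hg38, the build named in the submitters' processing notes). They did not move together. CXCL5 (chromosome 4, 73995642 to 73998677, ENSG00000163735), an epithelial neutrophil attractant, measured 82.1, 79.3 and 86.2 CPM in the controls and 102, 93.0 and 94.9 CPM with USAG-1. All 3 USAG-1 libraries were above all controls, by a narrow margin. The log2 fold change was 0.23 (SE 0.06, adjusted p = 0.0459). This call was lost when any library other than control 3 was left out, with adjusted p-values between 0.101 and 0.183.

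CXCL8, the gene of interleukin-8, a potent neutrophil attractant, measured 58.9, 53.1 and 83.6 CPM in the controls and 40.2, 61.2 and 44.2 CPM with USAG-1. The groups overlapped, since the second USAG-1 library was above 2 of the controls, and the log2 difference of -0.43 (SE 0.20) had an adjusted p of 0.193. CXCL2 measured 16.5, 15.6 and 11.2 CPM in the controls and 9.41, 8.70 and 11.2 CPM with USAG-1. Control 3 alone sat at the level of the USAG-1 libraries, and the log2 difference was -0.56 (SE 0.17, adjusted p = 0.0580). Without control 3 the difference in CXCL2 was -0.71 with an adjusted p of 0.00368. CXCL3, a close paralogue of CXCL2, differed by -0.10 (SE 0.21), with control levels of 1.51 to 1.62 CPM and USAG-1 levels of 1.39 to 1.55 CPM. CXCL1 had 7, 0 and 35 counts in the controls and 6, 18 and 0 with USAG-1, and CXCL6 had 2 counts, in 1 control. CXCL1, CXCL2 and CXCL3 are near-identical in part, so reads may have been split among them.

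CX3CL1, or fractalkine, is a chemokine tethered to the epithelial surface on a mucin stalk that holds monocytes and NK cells through CX3CR1. It lies on chromosome 16 from 57372477 to 57385044 (ENSG00000006210). The controls measured 14.9, 16.8 and 17.5 CPM and the USAG-1 libraries 23.2, 24.2 and 23.5 CPM. The groups were well apart, the mean being 1.44-fold higher with USAG-1 (log2 0.53, SE 0.09, adjusted p = 0.00608). CXCL16, the only other membrane-bound chemokine, did not show this: 6.87, 6.22 and 7.90 CPM in the controls lay among 6.71, 6.80 and 5.58 CPM with USAG-1 (log2 -0.14, SE 0.15, adjusted p = 0.594). The interferon-inducible chemokines CXCL9, CXCL10 and CXCL11, which attract activated T cells through CXCR3, were near or at 0. CXCL9 had 4 counts and CXCL10 had 8, each in 1 control, and CXCL11 had none.

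Of 9 CC chemokines, 6 were tested. CCL5, CCL20 and CCL2 fell and none rose in edgeR's test, with 0 higher at an unadjusted p under 0.05. CCL5, or RANTES, which attracts T cells, monocytes and eosinophils, lies on chromosome 17 from 35871491 to 35880793 (ENSG00000271503). It measured 8.05, 8.67 and 12.5 CPM in the controls and 1.96, 3.09 and 2.11 CPM with USAG-1. Every USAG-1 library was below every control, control 3 being the highest, and the mean was 4.08-fold lower (log2 -2.03, SE 0.24, adjusted p = 0.00173).

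CCL3 and CCL4, which attract macrophages and lie beside CCL5 between 36088256 and 36105621, were low. CCL3 measured 0.727 to 1.08 CPM in the controls and 0.174 to 0.649 CPM with USAG-1 (log2 -1.02, SE 0.49, adjusted p = 0.206). CCL4 measured 0.344 to 0.704 against 0.0871 to 0.348 CPM (log2 -1.20, SE 0.61, adjusted p = 0.228). Both have near-identical copies in the genome that could take part of their reads. CCL5, CCL3 and CCL4 are also products of T and NK cells, whose summed markers were 3.54-fold lower in the USAG-1 libraries; the part of those cells in the CCL5 result was not tested.

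CCL20, the ligand of CCR6 made by epithelia, lies on chromosome 2 from 227805739 to 227817556 (ENSG00000115009). It measured 2.56, 3.10 and 2.16 CPM in the controls and 0.806, 0.824 and 0.881 CPM with USAG-1. The USAG-1 libraries were tightly grouped below all controls, 3.11-fold lower in the mean (log2 -1.64, SE 0.23, adjusted p = 0.00317). The part of T and NK cells in the CCL20 result was not tested.

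CCL2, or MCP-1, the main monocyte attractant made by injured tubules, lies on chromosome 17 from 34255274 to 34257208 (ENSG00000108691). It measured 10.9, 10.9 and 14.9 CPM in the controls and 8.04, 6.57 and 7.23 CPM with USAG-1. The groups were apart and the mean was 1.68-fold lower (log2 -0.75, SE 0.16, adjusted p = 0.0168). The call was lost without the second or the third USAG-1 library, with adjusted p-values of 0.0842 and 0.0724 and log2 differences of -0.67 and -0.74. CCL28, a mucosal chemokine, measured 6.42, 6.61 and 7.11 CPM in the controls and 7.36, 6.64 and 7.55 CPM with USAG-1. These overlapped (log2 0.10, SE 0.13, adjusted p = 0.649). CCL26 had 10 and 8 counts in 2 USAG-1 libraries and none in the other 4 libraries, and CCL22 and CCL27 had none.

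Among the IL-6 family, most of whose receptors share the chain gp130, IL11 and LIF fell, while IL6 and CLCF1 did not pass. IL11, a factor linked to fibrosis, lies on chromosome 19 from 55364382 to 55370463 (ENSG00000095752). It measured 2.04, 2.15 and 3.31 CPM in the controls and 0.893, 0.893 and 0.811 CPM with USAG-1. The groups were well apart, the mean being 2.88-fold lower (log2 -1.52, SE 0.26, adjusted p = 0.00728). LIF, leukaemia inhibitory factor (chromosome 22, 30240453 to 30246759, ENSG00000128342), measured 191, 188 and 171 CPM in the controls and 154, 133 and 154 CPM with USAG-1. The groups did not overlap (log2 -0.32, SE 0.08, adjusted p = 0.0282), and the call was lost when any library other than control 3 was left out, with adjusted p-values of 0.0728 to 0.110.

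IL6 itself, the founding member and an inducer of the acute phase response, measured 75.7, 70.0 and 70.4 CPM in the controls and 81.2, 78.2 and 81.3 CPM with USAG-1. All USAG-1 libraries were above all controls, yet the log2 difference was 0.16 (SE 0.06) with an adjusted p of 0.118. CLCF1, a neurotrophic member that stimulates B cells, measured 24.3, 27.1 and 23.3 CPM in the controls and 19.3, 21.5 and 20.9 CPM with USAG-1. All USAG-1 libraries were lower, with a log2 difference of -0.27 (SE 0.09, adjusted p = 0.0724), and without control 3 the adjusted p was 0.0214. IL31 had no count.

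**Figure D2:**
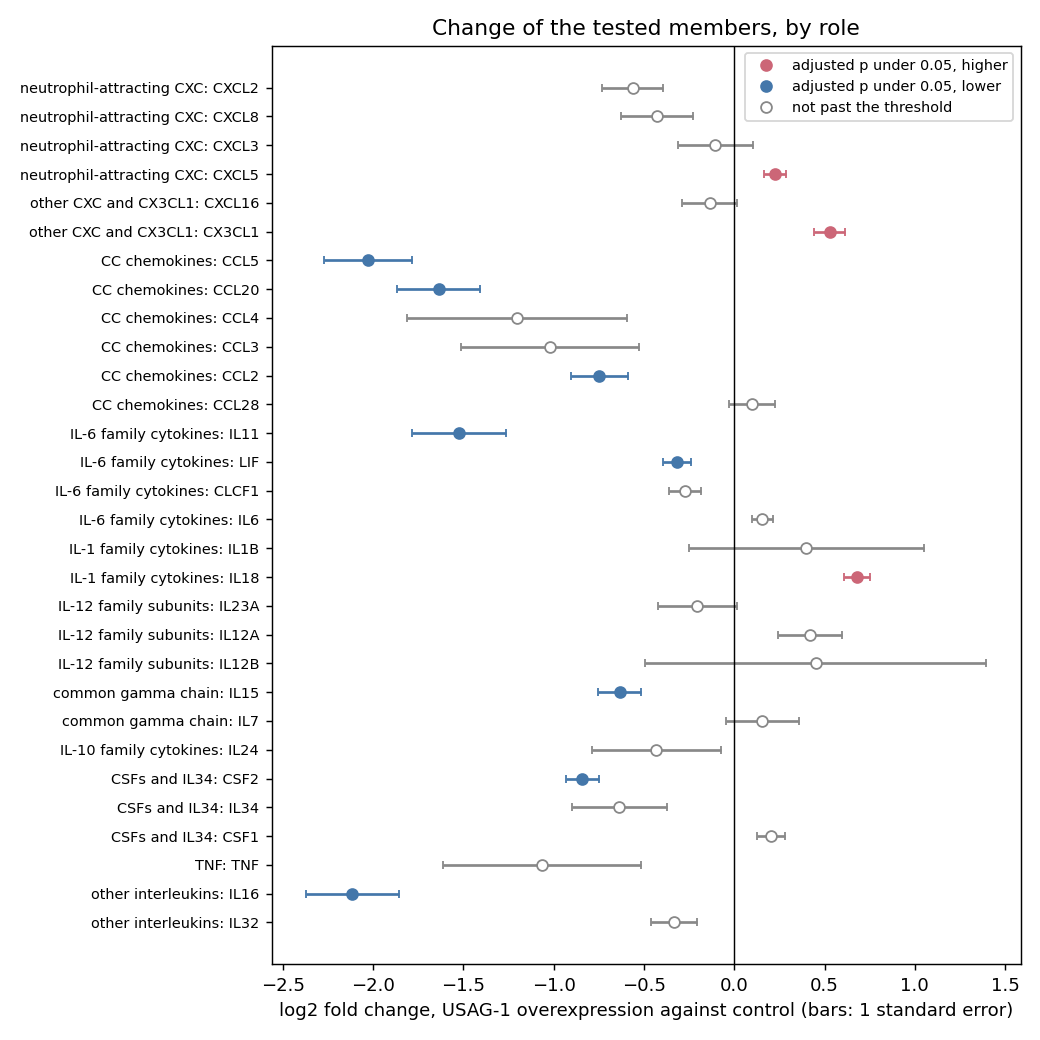
Log2 fold change of USAG-1 overexpression against control for the 30 tested members, grouped by role, with bars of 1 standard error. Filled points passed the test. The lower members lie between IL16 at -2.11 and LIF at -0.32, and the higher ones between CXCL5 at 0.23 and IL18 at 0.68.

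In the IL-1 family, IL18 rose. Its product is stored as a precursor in epithelial cells and released after cleavage by caspase-1, and in urine it is a marker of tubular injury. IL18 lies on chromosome 11 from 112143253 to 112164093 (ENSG00000150782). It measured 16.3, 16.1 and 16.1 CPM in the controls and 25.3, 25.5 and 26.8 CPM with USAG-1. The spread within groups was small, with means of 16.1 ± 0.114 and 25.9 ± 0.783 CPM (SD, n = 3 each), and the groups were far apart (1.60-fold, log2 0.68, SE 0.07, adjusted p = 0.00113). IL1B, whose product caspase-1 also cleaves, varied widely within both groups.

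IL1B measured 0.216, 0.993 and 2.02 CPM in the controls and 0.893, 1.33 and 2.04 CPM with USAG-1, with no call (log2 0.40, SE 0.65, adjusted p = 0.730). Its direction turned without control 1, to -0.080. The myeloid marker S100A9, which neutrophils and monocytes carry, also varied widely within groups, at 13.7, 9.73 and 47.9 CPM in the controls and 8.08, 28.5 and 33.2 CPM with USAG-1, and its part in the IL1B level was not tested. IL1A, IL36A, IL36B and IL37, its neighbours on chromosome 2, had at most 6 counts in any library. The 3 subunits of the IL-12 family showed no call. IL12A, the p35 chain, was 2.44 to 3.09 CPM in the controls and 3.34 to 4.17 CPM with USAG-1 (log2 0.42, SE 0.18, adjusted p = 0.155). IL23A, the p19 chain, was 2.42 to 3.55 against 2.27 to 3.16 CPM, and IL12B, the shared p40 chain, did not exceed 0.359 CPM in any library and changed sign, to -0.12, without control 3.

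IL15, which sustains NK cells and memory T cells and is presented on the cell surface by IL15RA, fell. It lies on chromosome 4 from 141636583 to 141733987 (ENSG00000164136). It measured 10.5, 12.1 and 10.2 CPM in the controls and 7.08, 6.71 and 7.35 CPM with USAG-1. The groups were apart, 1.55-fold in the mean (log2 -0.63, SE 0.12, adjusted p = 0.0108). Without the second USAG-1 library the difference was -0.60 and the adjusted p 0.0576. IL7, a growth factor of T cells, was 3.14 to 4.85 CPM in the controls and 3.87 to 5.12 CPM with USAG-1, and the groups overlapped (log2 0.15, SE 0.20, adjusted p = 0.660). IL2, IL4 and TSLP had no count.

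Of the colony-stimulating factors, CSF2 fell and CSF1 did not pass. CSF2, or GM-CSF, drives granulocytes and macrophages, and lies on chromosome 5 from 132073789 to 132076170 (ENSG00000164400). It measured 33.3, 34.5 and 38.5 CPM in the controls and 18.5, 19.1 and 21.6 CPM with USAG-1. The groups were far apart, with means of 35.4 ± 2.71 and 19.8 ± 1.65 CPM (SD, n = 3 each; 1.79-fold, log2 -0.84, SE 0.09, adjusted p = 0.00116). The call held in all 14 alternative fits, between -0.91 and -0.77. The part of T and NK cells in the CSF2 result was not tested.

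CSF1, the macrophage growth factor, measured 176, 170 and 201 CPM in the controls and 205, 221 and 203 CPM with USAG-1. The USAG-1 libraries were above the controls, the closest pair being control 3 and the third USAG-1 library, and the log2 difference of 0.20 (SE 0.08) had an adjusted p of 0.113. Without control 3 it was 0.29 with an adjusted p of 0.00180. IL34, the second ligand of the CSF1 receptor, was 1.39 to 2.43 CPM in the controls and 1.12 to 1.32 CPM with USAG-1 (log2 -0.64, SE 0.27, adjusted p = 0.148). CSF3, or G-CSF, had 3 counts, in 1 control.

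IL5 and IL13, type 2 cytokines on chromosome 5 beside CSF2, had counts in controls alone. IL5 had 12, 5 and 2 counts in the controls and none with USAG-1, which made it the only detected member with too few counts to be tested, and IL13 had 15 counts in control 3. IL3 and IL4, of the same stretch (132060655 to 132682678), had none. Both IL5 and IL13 are known products of T helper cells.

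TNF, the early inflammatory cytokine, was low, with 0.216, 0.648 and 0.750 CPM in the controls and 0.218, 0.252 and 0.301 CPM with USAG-1. The first control lay below every USAG-1 library (log2 -1.06, SE 0.55, adjusted p = 0.234). IL24, of the IL-10 family, was 0.844 to 1.07 CPM in the controls and 0.481 to 1.02 CPM with USAG-1, which overlapped (log2 -0.43, SE 0.36). IL10 had 4 counts in each of 2 controls, IL26 had 2 and 6 counts in 2 controls, and IL19 and IL17B had none.

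IL16, a T cell chemoattractant that binds CD4, showed the lowest fold change of the tested members. It lies on chromosome 15 from 81159575 to 81314058 (ENSG00000172349). It measured 3.07, 4.13 and 5.14 CPM in the controls and 1.09, 0.756 and 0.996 CPM with USAG-1. No library crossed between the groups, and the mean was 4.33-fold lower (log2 -2.11, SE 0.26, adjusted p = 0.00190). STARD5 overlaps IL16 on the other strand and also fell, by 1.02 on the log2 scale (adjusted p = 0.0287). The strand setting of the counting is not given in the sources used here, so reads of the pair may have been mixed.

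IL32, an inflammatory cytokine of epithelial, T and NK cells, measured 156, 174 and 227 CPM in the controls and 142, 155 and 145 CPM with USAG-1. All USAG-1 libraries were below all controls, narrowly for control 1, and control 3 was far above the rest (log2 -0.33, SE 0.13, adjusted p = 0.114). Without control 1 the difference was -0.44 and the adjusted p 0.0476, whereas without control 3 they were -0.16 and 0.0670. Control 3 was the highest of the controls for 17 of the 30 tested members, of which 5 were called lower, 2 higher and 10 not called, and it had the highest T and NK cell sum. The part of T and NK cells in the levels of IL16 and IL32 was not tested.

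**Figure D3:**
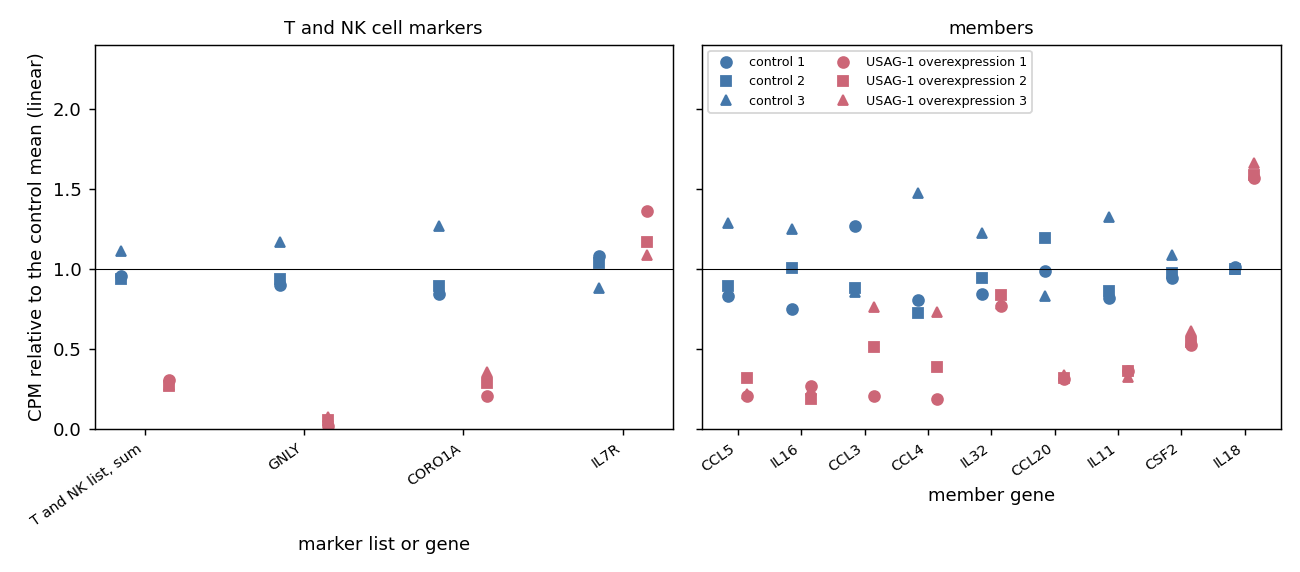
Level in each library relative to the mean of the 3 controls, on a linear axis from 0, for the summed T and NK cell markers and their 3 most abundant genes (left) and for 9 members (right). The marker sum was 172 to 204 CPM in the controls and 48.6 to 56.4 CPM with USAG-1, and CCL5, IL16, CCL20 and IL11 were lower in all 3 USAG-1 libraries, while IL18 was higher in all 3.

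Factors of the same kind that the name rule missed were read from a separate list of 24, of which 11 were tested. TNFSF10, MIF and TGFB1 fell (27.3%, against 6.91% of all tested genes), with a list median of -0.47. In edgeR, DESeq2 or limma-voom, or at an unadjusted p under 0.05, 0 of the list rose. TNFSF10, or TRAIL, a death receptor ligand, measured 227, 239 and 226 CPM in the controls and 163, 174 and 163 CPM with USAG-1. The groups were far apart (log2 -0.47, SE 0.06, adjusted p = 0.00170). TGFB1, the fibrogenic growth factor, measured 52.2, 49.3 and 52.0 CPM against 41.6, 40.3 and 44.5 CPM (log2 -0.28, SE 0.07, adjusted p = 0.0241). MIF, which holds macrophages in place, fell by 0.43 (adjusted p = 0.0396). Without the second or the third USAG-1 library 1 of the list was lower, and without control 3 it was 5.

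Of 23 chemokine receptors 11 were tested and 5 fell (45.5%, against 6.91% of all tested genes), among them CXCR6, CXCR3, CXCR4 and CCR2. The count that rose was 0 in edgeR, DESeq2 and limma-voom and at an unadjusted p under 0.05. In the controls CXCR4 averaged 6.93 CPM, and CXCR6, CXCR3 and CCR2 were lower, at 1.32, 1.26 and 1.12 CPM. All 4 are carried by T or NK cells, and the part of those cells in these levels was not tested. CXCR6, the receptor of CXCL16, measured 1.49, 1.18 and 1.29 CPM in the controls and 0.152, 0.321 and 0.324 CPM with USAG-1 (log2 -2.30, SE 0.38, adjusted p = 0.00607). CX3CR1, the receptor of CX3CL1, did not pass (adjusted p = 0.846), and CCR6, that of CCL20, had too few counts to be tested. Without control 2, or without the third USAG-1 library, 3 of the list were lower, and with a minimum of 10 counts in every library 1 was.

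Of 50 receptors for interleukins, LIF, colony-stimulating factors and TNF, 42 were tested, with a median of -0.40. Of these, 9 fell (21.4%, against 6.91% of all tested genes) and 2 rose (4.76%, against 8.95%). DESeq2's Wald test called 15 lower. IL2RB, the signalling chain shared by IL-2 and IL-15, measured 7.33, 8.39 and 7.97 CPM in the controls and 0.937, 1.12 and 1.04 CPM with USAG-1. The difference was -2.93 (SE 0.16, adjusted p = 5.07e-05). TNFRSF1B, the second TNF receptor, measured 10.8, 12.8 and 13.0 CPM against 3.01, 2.98 and 3.71 CPM (log2 -1.92, SE 0.15, adjusted p = 0.000373). The other IL-2 and IL-15 receptor chains fell with them. IL2RA had no count in any USAG-1 library, against 2.73 to 3.66 CPM in the controls, which is at least 46.2-fold lower when 3 counts are taken in each library. IL15RA, which presents the IL15 protein, measured 12.4, 10.9 and 13.1 CPM in the controls and 6.12, 7.03 and 6.84 CPM with USAG-1 (log2 -0.87, SE 0.12, adjusted p = 0.00330), so that ligand and receptor chain were both lower. IL2RA, IL2RB and IL2RG are known from lymphocytes, and the part of T and NK cells in these receptor levels was not tested.

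The receptors IL1RAP and IL20RB were chosen after their values were seen. IL1RAP, the accessory chain of the IL-1 receptor, rose from 35.5 to 36.4 CPM in the controls to 47.4 to 51.1 CPM with USAG-1 (log2 0.44, SE 0.06, adjusted p = 0.00303), and IL20RB, a chain of the receptors for IL-20 and IL-24, rose by 0.45 (SE 0.09, adjusted p = 0.0126). The receptor list had 1 higher without control 2 or without the second or the third USAG-1 library, and 5 without control 3. The shared chain IL6ST, which is gp130, and LIFR did not pass, with differences of 0.30 (adjusted p = 0.116) and 0.40 (adjusted p = 0.0827). CSF2RA (adjusted p = 0.846) and IL11RA (adjusted p = 0.919) were near the floor.

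Of 31 genes of the NF-kappaB pathway and its feedback, all tested, 5 fell (16.1%, against 6.91% of all tested genes) and 2 rose (6.45%, against 8.95%), with a median of -0.12. With DESeq2's Wald test, or with at least 10 counts in every library, 8 fell. TRAF1, a target and adaptor of the pathway, measured 24.8, 31.4 and 34.9 CPM in the controls and 11.6, 14.6 and 11.1 CPM with USAG-1. The libraries did not overlap (log2 -1.29, SE 0.15, adjusted p = 0.00168). The part of T and NK cells in the TRAF1 level was not tested. TNFAIP2, a gene induced by TNF, measured 165, 167 and 163 CPM against 132, 131 and 133 CPM (log2 -0.33, SE 0.05, adjusted p = 0.00473). NFKB1, SOD2 and ICAM1 also fell, by 0.39, 0.37 and 0.25 on the log2 scale. TNFAIP3, the feedback inhibitor A20, and MAP3K14, the kinase of the noncanonical arm, rose by 0.35 and 0.27. The count of higher genes was 0 without the first or the third USAG-1 library and 4 without control 3. The count of lower genes was 3 without the second or the third USAG-1 library and 8 without control 3.

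Of 20 genes of the JAK-STAT pathway and the response to the IL-6 family, all tested, 3 rose, among them BCL6 and PIM1. STAT5A fell, and the list median was -0.03. Those that rose were 15%, against 8.95% of all tested genes, and those that fell 5%, against 6.91%. BCL6, a transcriptional repressor, measured 21.4, 19.9 and 17.1 CPM in the controls and 30.8, 33.4 and 34.8 CPM with USAG-1 (log2 0.76, SE 0.10, adjusted p = 0.00241). The count of lower genes was 0 when any library other than control 3 was left out, under the replicate block and with no filter, and 3 without control 3.

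**Figure D4:**
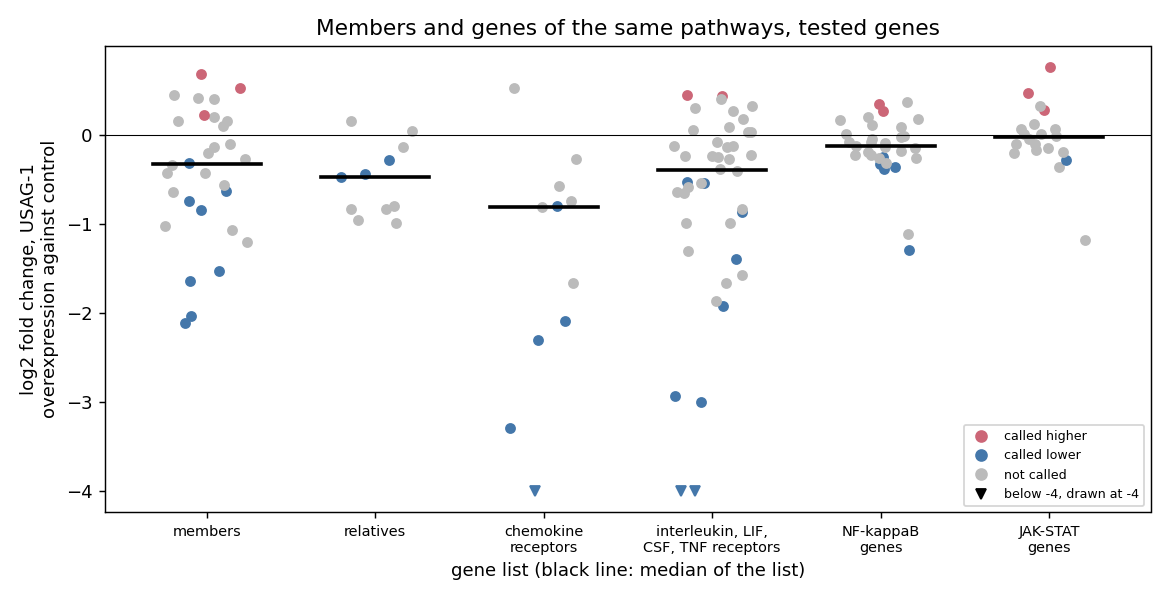
Log2 fold change of the 30 tested members and of the tested genes of 5 gene lists of the same pathways, with the median of each as a black line. The 3 points below -4, IL2RA and IL9R among them, are drawn at -4. The medians run from -0.03 for the JAK-STAT genes to -0.81 for the chemokine receptors, with -0.33 for the members.

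The members that kept their call in all 14 alternative fits were IL18, CX3CL1, CSF2, CCL5, IL16, CCL20 and IL11, which makes 7 of the 11. Of the 30 tested members, 28 kept their direction in every fit in which they were tested, IL1B and IL12B being the exceptions. That was 14 fits for 25 members and 13 for CCL3, CCL4, TNF, IL1B and IL12B, which the filter of 10 counts in every library left out.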

How the data were processed

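RNA of 6 HK-2 samples was sequenced in paired ends. The sample labels describe poly(A) selection, dUTP strand marking and a NovaSeq instrument, whereas the series' design text names rRNA removal and a HiSeq instrument. The authors deposited raw counts per gene, although the table's name refers to FPKM. The submitters' notes name cutadapt 1.9, FastQC and hg38. The aligner, the counting tool and its strand setting are not given in the sources used here. Groups came from the labels.

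Genes passing filterByExpr were fitted with edgeR 4.0.16 (R 4.3.3, TMM, quasi-likelihood test, control against overexpression, Benjamini-Hochberg adjustment over all genes tested). CPM values use TMM-scaled library sizes. Alternatives used DESeq2 1.42.0, limma 3.58.1, other scalings and filters, a replicate block, and each library left out. Counting error only is covered by the 3-count floor. Replicate numbers did not pair the samples (correlations of same-numbered deviations of 0.070, -0.054 and 0.037).

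Members, lists and tests were chosen with earlier results of these data known. All tested members are named, with every library's CPM for those called and for the 8 most abundant others. From each pathway list the 2 genes with the smallest p are named, and from each marker list the 3 most abundant, except for items that are not reported here. The human sequences and gene lengths were not used here, and the scripts were tested on simulated data.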

Additional observations from a re-analysis of the deposited data

How the results depend on the processing

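With an adjusted p under 0.01 the members called lower were 5 rather than 8, and all genes called were 1104 rather than 2884. With a log2 fold change of at least 1 required, 0 members were higher, 4 were lower and 495 genes were called in all. Leaving out each library in turn gave 2 to 4 members higher, 5 to 10 lower, the fewest without the second USAG-1 library, and 1137 to 5091 genes called in all, the most without control 3. With a replicate block, members higher were 2 and lower 8, CXCL5 being lost at an adjusted p of 0.0672, and 2381 genes were called, with no other member's call changed. Among the pathway lists the block moved the NF-kappaB genes called higher from 2 to 1 and those called lower from 5 to 4. JAK-STAT genes called lower went from 1 to 0, and interleukin, LIF, CSF and TNF receptors called lower from 9 to 10. The block counts come from numbers that did not pair the samples. DESeq2's Wald test called 14 members, adding CLCF1, CXCL2 and IL32, and limma-voom called the same 11. In edgeR's test CSF1 was gained with library sizes alone (adjusted p = 0.0428). CXCL2 was gained there with at least 10 counts in every library (adjusted p = 0.0468). CXCL5 was also lost with DESeq2 size factors and with no filter, and LIF with no filter and with library sizes alone. Over the left-out libraries the log2 difference ran from -0.080 to 1.22 for IL1B and from -0.12 to 1.37 for IL12B, turning without control 1 and control 3 respectively. The causes were not tested. The 14 members with counts that were not tested had at most 35 counts in a library. With no filter on low counts 44 members were fitted, and the 9 called were all among the 11.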
